A study of Homo sapiens with 9 samples.

Results

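The transcriptome of MM1S cells was read along the level of PHF19, with all 9 libraries of the series ordered by their own PHF19 value (9 of 9 libraries, no library left out of the order). MM1S is an established human multiple myeloma line, that is, a malignant plasma cell line. The labels give 3 groups of lentivirus-infected cells: empty vector (shEV, 3 libraries), shPHF19 for stable knockdown (PHF19_KD, 3 libraries) and PHF19-KD cells to which shRNA-resistant PHF19 was added (KD_Rescued, 2 libraries). The last library carries labels that disagree, a title of the knockdown series (PHF19-KD) and the shRNA entry of the rescued cells. It holds the only PHF19 value between the knockdown and the control, is called the intermediate library here, and was left out of the main tests. All groups share the lentiviral infection, and KD_Rescued cells also carry the shRNA. The labels do not say whether replicates came from separate cultures, so the p-values rest on a spread that may be technical only.

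PHF19 is a Polycomb-like protein that binds Polycomb repressive complex 2 (PRC2) and helps it reach chromatin. PRC2 methylates histone H3 at lysine 27 through its catalytic subunit EZH2 or EZH1, with EED and SUZ12 as the other core subunits, and this mark accompanies gene silencing. Myeloma cells keep the plasma cell program of large-scale antibody secretion, which depends on the unfolded protein response of the endoplasmic reticulum, while they also divide.

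PHF19 stood at 26.3, 27.7 and 27.5 CPM (counts scaled to the column total) in the PHF19_KD libraries and at 63.5 in the intermediate library. It was 119.7, 119.95 and 103 in the shEV libraries and 224 and 219 in the KD_Rescued libraries. The groups did not overlap, with means of 27.2 ± 0.751 (SD, n = 3), 114 ± 9.80 (SD, n = 3) and 222 ± 3.01 (SD, n = 2). The knockdown kept 23.8% of the control level, the intermediate library 55.6%, and KD_Rescued reached 194%. PHF19 ordered the libraries and was given no test, and its count does not separate the cell's own transcript from the introduced one. The series thus holds a lower leg of 2.07 doublings, from PHF19_KD to shEV, and an upper leg of 0.96 doublings, from shEV to KD_Rescued. Both legs share the shEV libraries. KD_Rescued was read in lane 2, per the library names, and all other libraries in lane 6, so level, construct and lane cannot be told apart on the upper leg.

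Library totals ran from 10164100 to 23751400 estimated counts and were lower in the 3 PHF19_KD and the intermediate library (at most 12024900) than in the others (at least 16974700). Over 12870 genes with a mean log2 CPM of at least 1, the median absolute log2 difference between libraries of a group was 0.06 to 0.14. The intermediate library lay 0.23 to 0.24 from the knockdown libraries, 0.36 to 0.38 from the shEV libraries and 0.37 from the KD_Rescued libraries, while shEV and KD_Rescued lay 0.21 to 0.27 apart. Replicate 3 of shEV lay farthest from its own group. The plasma cell markers SDC1, TNFRSF17, IRF4, PRDM1, XBP1, CD38 and MZB1 were read in all 9 libraries, from 97.2 CPM (CD38 in KD_Rescued replicate 2) upwards. Of the markers of other cell types, 4 of 13 for T and NK cells, 2 of 11 for monocytes, 2 of 10 for red cells, 2 of 10 for epithelium and 2 of 10 for fibroblasts passed the filter on low counts. The summed red cell list rose with the level, from 12.6 to 14.4 CPM in PHF19_KD over 37.5 in the intermediate library and 50.4 to 53.7 in shEV to 60.7 to 62.0 in KD_Rescued, with GYPB and AHSP at 0 in all libraries. The summed monocyte list was 26.9 to 31.7 CPM in PHF19_KD, 33.9 in the intermediate library, 20.4 to 22.6 in shEV and 9.93 to 10.7 in KD_Rescued, with FCGR3A and S100A8 at 0. The summed fibroblast list fell, from 10.3 to 11.1 CPM in PHF19_KD to 1.10 to 1.64 in KD_Rescued, with PDGFRA, LUM and THY1 at 0. The part of other cells in the results was not tested, and in bulk RNA fewer cells of a type and less RNA per cell cannot be told apart.

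Most of the transcriptome was called on the lower leg and fewer genes on the upper one, and genes called in the same direction on both were a minority. Of 16599 genes tested, 5682 (34.2%) rose and 5793 (34.9%) fell from PHF19_KD to shEV, and 3435 (20.7%) rose and 3163 (19.1%) fell from shEV to KD_Rescued. In either direction this was 69.1% of genes on the lower leg and 39.7% on the upper leg. A gene was called at an adjusted p below 0.05 (edgeR quasi-likelihood, Benjamini-Hochberg). The share of rises among lower-leg calls was 49.5%, and 39.4% with upper-quartile scaling. In all, 680 (4.1%) rose on both legs and 676 (4.07%) fell on both. Genes that levelled off were called on the lower leg, missed the threshold on the upper leg, and had slopes that differed between the legs by a test of that difference, the bend. They comprised 1839 (11.1%) levelled off high and 1305 (7.86%) levelled off low. The turning genes comprised 1859 (11.2%) that peaked at the control level and 1964 (11.8%) with a trough there. A further 631 (3.8%) rose and 478 (2.88%) fell on the upper leg only, with the bend called. In 3152 genes the lower leg alone was called and the bend was not, in 310 the upper leg alone, and 3705 were called on neither leg. For the 3152 and 310 genes a steady course and a bent one cannot be told apart. The legs differ in length and in number of libraries, so their counts do not have equal power. As both legs share the shEV libraries, a deviation of these shifts the legs in opposite directions, toward peaks or troughs.

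Among the steady genes, the slope per doubling of PHF19 did not differ detectably between the legs in 434 of 680 rising and 455 of 676 falling genes. With a size limit of 2-fold on each called leg, 25 genes rose and 44 fell steadily, 87 peaked, 530 had a trough, 1233 levelled off high and 1186 low. Without KD_Rescued replicate 1 or 2 the steady genes numbered 393 or 386 rising and 423 or 429 falling. The PHF19_KD and shEV libraries did not overlap in 72% of all genes and the shEV and KD_Rescued libraries in 61.7%. A description over all 9 libraries, with the intermediate one in its place and no overlap anywhere, held 637 genes (3.84%) in rising and 508 (3.06%) in falling order. These included 392 of the steadily rising and 318 of the steadily falling genes.

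**Figure D1:**
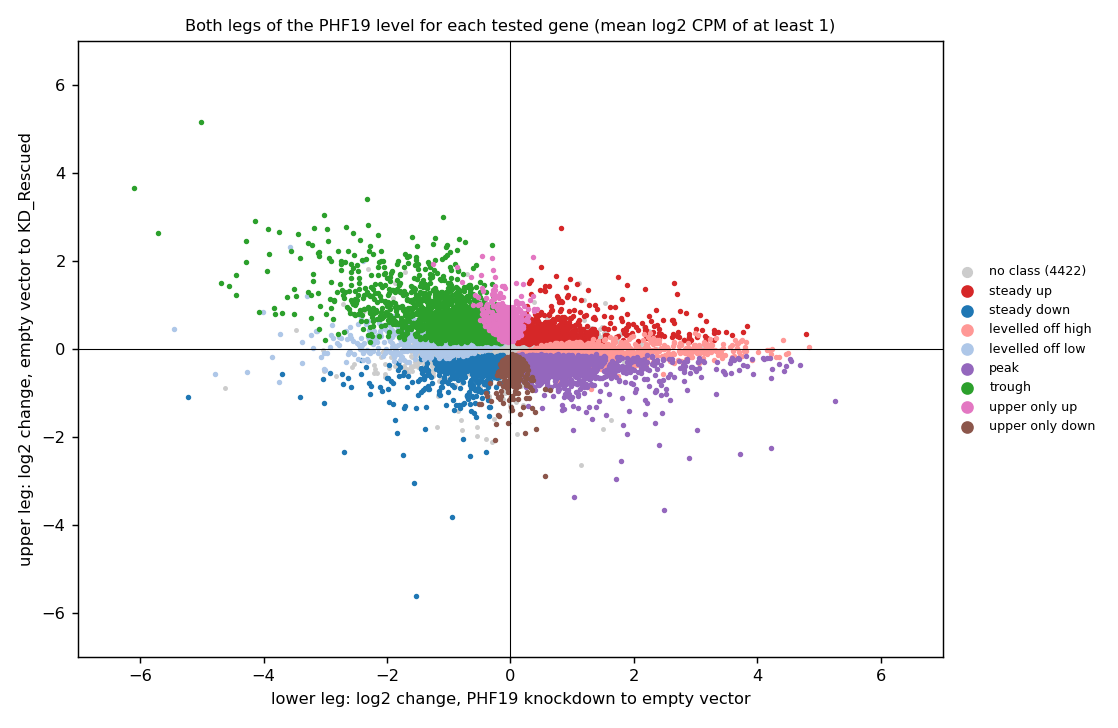
Each point is 1 tested gene, with the fitted log2 change from PHF19_KD to shEV on the x axis and from shEV to KD_Rescued on the y axis, coloured by class. Shown are 12868 genes with a mean log2 CPM of at least 1, of which 2 lie outside the axes. The steady classes occupy the upper right and lower left corners, and changes above 2-fold on both legs (log2 of 1) are sparse there compared with the trough class at the upper left.

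The genes of mitosis followed PHF19 closely on the lower leg and then divided into those that kept rising and those that levelled off. All 53 measured members of the G2/M list, which drive spindle assembly and chromosome segregation, rose on the lower leg, against 34.2% of all genes. Their median log2 change was 2.90 against -0.03 over all genes tested. On the upper leg 17 rose further, 32 levelled off high and 4 peaked, classes that held 4.1%, 11.1% and 11.2% of all genes. The median upper change was 0.02 for the list and for all genes (-0.03 for the list under RLE scaling and DESeq2). The intermediate library lay in order between PHF19_KD and shEV, and KD_Rescued above them, without overlap in 21 of 53, against 3.84% of all genes. The steadily rising members included CENPA (log2 changes 2.72 and 0.40), the histone variant of centromeres, and FOXM1 (2.90 and 0.28), a transcription factor of mitotic genes. MKI67, the proliferation marker Ki-67, levelled off. MKI67 stood at 64.9, 55.2 and 60.5 CPM in the PHF19_KD libraries, 237 in the intermediate library, 663, 662 and 689 in the shEV libraries and 602 and 624 in the KD_Rescued libraries, and the control and KD_Rescued libraries did not overlap. Its lower change was 3.48 ± 0.06 (adjusted p = 7.10e-13) and its upper change -0.13 ± 0.06 (adjusted p = 0.0825), with a bend of -1.82 log2 per doubling (adjusted p = 6.66e-09). Under DESeq2 and under RLE scaling this upper fall was called. The count of steadily rising members was 11 with DESeq2, 9 without either KD_Rescued library, and 4 when all 9 libraries entered a broken-line fit.

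The genes whose profile over 9 libraries was most like that of PHF19 itself, by the root mean square difference of centred log2 CPM, were mostly genes of mitosis. They were TROAP, KIF20A, RHBDL3, CDCA3, ASPM and PIF1. TROAP, a protein of the spindle and centrosome, led them: TROAP measured 7.54, 6.54 and 8.15 CPM (PHF19_KD), 20.1 CPM (intermediate), 37.2, 35.6 and 31.97 CPM (shEV) and 56.9 and 61.3 CPM (KD_Rescued). KIF20A is a mitotic kinesin of cytokinesis, and from the lowest to the highest PHF19 group, KIF20A read 7.63, 7.53 and 8.93 CPM, then 17.8, then 36.7, 39.1 and 40.6 and last 60.2 and 59.6 CPM. ASPM, a spindle pole protein, had 32.7, 32.2 and 32.4 CPM in PHF19_KD, 74.8 in the intermediate library, 160.1, 159 and 170.3 in shEV and 237 and 232 in KD_Rescued. Each of these 3 genes kept the 4 levels apart, and none overlapped between neighbouring levels. As the genes were chosen by likeness to PHF19 over these same libraries, their order and slopes are no independent result. The slopes of ASPM still differed between the legs (bend -0.58 log2 per doubling, adjusted p = 1.14e-05), while those of CDCA3 did not by this test (bend -0.21, adjusted p = 0.0941). The rhomboid-like gene RHBDL3 was weakly expressed: RHBDL3 measured 0.558, 0.579 and 0.434 CPM (PHF19_KD), 2.37 CPM (intermediate), 3.798, 3.44 and 3.42 CPM (shEV) and 6.57 and 6.51 CPM (KD_Rescued). PIF1, a DNA helicase, rose by 2.18 ± 0.17 and then 1.36 ± 0.11 on the log2 scale.

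A short element recurred in the promoters of the mitosis genes. Among RefSeq promoters (assembly GRCh38.p14, 250 bases before the gene start), which were matched by symbol for 10041 of 16599 tested genes, the cell cycle homology region (CHR; TTTGAA or TTCGAA, either strand) was found in 23 of 45 matched mitosis genes (51.1%), against 9.68% of all matched tested genes and 14.6% of all 27305 promoters of the table. The CCAAT box (CCAAT, either strand) was found in 71.1% against 35.5%. Outside the mitosis list, CHR was in 6 of 15 matched promoters of MHC class II genes, which present antigen (40%). The promoter of MKI67 (chr10:128126424-128126673, minus strand) is shown as an example, written 5′ to 3′ with the start at its right end and the CHR and CCAAT matches in capitals. Its last CHR match ends on the base where the last CCAAT match, read on the other strand, begins.
MKI67: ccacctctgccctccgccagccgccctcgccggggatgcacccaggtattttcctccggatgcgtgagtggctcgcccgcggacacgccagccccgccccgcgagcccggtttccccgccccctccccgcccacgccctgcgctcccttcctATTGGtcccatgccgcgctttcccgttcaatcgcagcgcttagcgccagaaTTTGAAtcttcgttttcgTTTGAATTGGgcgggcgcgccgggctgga

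DNA replication and G1/S genes rose as strongly as the mitosis genes on the lower leg and turned down slightly above the control. All 54 members rose from PHF19_KD to shEV, against 34.2% of all genes, with a median log2 change of 2.95. From shEV to KD_Rescued 30 fell and 3 rose (ORC6, LIG1 and POLE), against 19.1% and 20.7% of all genes, and the median was -0.22. This gave 30 peaks, 21 genes levelled off high and 3 steady rises, classes that held 11.2%, 11.1% and 4.1% of all genes. The upper rise of LIG1 was lost under 9 alternatives, among them DESeq2 and leaving out either KD_Rescued library. RRM2, a subunit of ribonucleotide reductase, peaked: RRM2 measured 28.7, 27.7 and 29.1 CPM (PHF19_KD), 147 CPM (intermediate), 727, 740.1 and 749.6 CPM (shEV) and 568 and 575 CPM (KD_Rescued). The KD_Rescued libraries lay below every control library and far above the knockdown, with log2 changes of 4.70 ± 0.05 and -0.37 ± 0.04 (adjusted p = 2.23e-14 and 3.57e-05). PCNA, the sliding clamp of DNA polymerase, gave 51.5, 50.7 and 51.9 CPM in PHF19_KD, 141 in the intermediate library, 412, 434 and 459 in shEV and 281 and 278 in KD_Rescued. CDC6, which loads the MCM helicase, levelled off instead: from the lowest to the highest PHF19 group, CDC6 read 3.72, 3.56 and 4.86 CPM, then 31.8, then 112, 114 and 123 and last 120.4 and 119 CPM. Its control and KD_Rescued libraries overlapped, and its upper change was 0.05 ± 0.06 (adjusted p = 0.593). UHRF1, a reader of hemimethylated DNA, and E2F8, an E2F family repressor, also levelled off after lower changes of 4.49 ± 0.11 and 4.34 ± 0.12. Of the 30 peaks, 14 were left in the broken-line fit with all 9 libraries and 22 without KD_Rescued replicate 1.

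In replication promoters another element recurred. An E2F site (TTTCCCGC, TTTGGCGC, TTTCGCGC or TTTGCCGC, either strand) was found in 16 of 44 matched replication genes (36.4%), against 4.44% of all matched tested genes, and CHR in 4.55%. E2F sites were also in 3 of 11 PRC2 promoters (27.3%). The CDK inhibitor and p53 target list, which mostly fell on the lower leg, held them in 5 of 22 (22.7%). GINS2, a subunit of the replicative helicase, showed 1.67, 1.41 and 1.39 CPM in PHF19_KD, 8.67 in the intermediate library, 35.7, 35.95 and 33.2 in shEV and 29.4 and 28.2 in KD_Rescued, and its promoter (chr16:85688955-85689204, minus strand) has the match in capitals 31 bases before the start.
GINS2: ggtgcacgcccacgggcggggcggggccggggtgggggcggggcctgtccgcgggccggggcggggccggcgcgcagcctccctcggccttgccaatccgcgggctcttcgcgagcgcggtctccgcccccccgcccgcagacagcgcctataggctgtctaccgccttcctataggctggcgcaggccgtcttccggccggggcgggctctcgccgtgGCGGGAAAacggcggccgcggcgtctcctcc

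The secretory program kept rising past the control level. Of 30 measured genes of the unfolded protein response and secretion, 22 rose and 6 fell on the lower leg. On the upper leg 24 rose and 4 fell, and 19 rose on both. Among all genes these shares were 34.2%, 34.9%, 20.7%, 19.1% and 4.1%. The median log2 changes were 0.69 and 0.37, and 16 genes were in rising order without overlap over all 9 libraries, against 3.84% of all genes. MANF, a secreted stress factor of the endoplasmic reticulum, gave 39.8, 39.1 and 38.3 CPM in PHF19_KD, 65.1 in the intermediate library, 85.3, 89.6 and 82.2 in shEV and 153 and 153 in KD_Rescued. Its log2 changes were 1.13 ± 0.05 and 0.84 ± 0.05, a steeper slope on the upper leg (bend 0.33 per doubling, adjusted p = 0.00148). SDF2L1 stood at 16.7, 19.8 and 17.6 CPM in the PHF19_KD libraries, 26.5 in the intermediate library, 46.4, 58.9 and 34.1 in the shEV libraries and 77.6 and 71.4 in the KD_Rescued libraries, with log2 changes of 1.37 ± 0.21 and 0.68 ± 0.19. It is an endoplasmic reticulum cofactor, and its upper call was lost without either KD_Rescued library. The chaperone HSPA5 (BiP) rose mainly on the upper leg: HSPA5 measured 662, 643 and 652 CPM (PHF19_KD), 867 CPM (intermediate), 738, 756 and 833 CPM (shEV) and 1319.5 and 1340.3 CPM (KD_Rescued). Its intermediate library lay above every control library, and its place exceeded that of the shEV mean as in CRELD2, SEL1L and EDEM1. CRELD2, another folding factor, had 34.01 CPM in the intermediate library, 34.95, 34.1 and 26.9 in shEV and 95.3 and 96.7 in KD_Rescued. The lower calls of HSPA5 and CRELD2 were lost under upper-quartile scaling. ERN1, the kinase that processes XBP1 RNA, fell on both legs (-0.81 and -0.47). XBP1, a transcription factor of the response, was called lower on both legs (-0.14 and -0.48), but its lower call was lost under 9 alternatives. The 19 steady rises were 14 without KD_Rescued replicate 2 and in the broken-line fit, and none passed a limit of 2-fold on each leg. The 6 lower falls were 3 without PHF19_KD replicate 3 or shEV replicate 1.

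The plasma cell list did not move as a block. Of 29 measured members 14 rose and 7 fell on the lower leg, 8 rose and 17 fell on the upper leg, and 10 peaked. The same shares over all genes were 34.2%, 34.9%, 20.7%, 19.1% and 11.2%. The 8 upper rises were 5 without shEV replicate 2 or KD_Rescued replicate 1 and 4 without KD_Rescued replicate 2. DERL3 and FKBP11, which serve protein quality control and folding in the endoplasmic reticulum, rose steadily. DERL3 stood at 45.3, 45.99 and 41.2 CPM in the PHF19_KD libraries, 85.2 in the intermediate library, 144, 143 and 121 in the shEV libraries and 256 and 267 in the KD_Rescued libraries, and the difference between its slopes missed the threshold (bend 0.20 per doubling, adjusted p = 0.098). FKBP11 rose by 1.52 ± 0.05 and 0.74 ± 0.05 on the log2 scale. Surface proteins went both ways. CD38, an ectoenzyme targeted in myeloma therapy, fell steadily: from the lowest to the highest PHF19 group, CD38 read 337, 327 and 332 CPM, then 266, then 147, 146 and 151 and last 101 and 97.2 CPM. Its log2 changes of -1.16 ± 0.04 and -0.59 ± 0.05 gave a bend of -0.05 (adjusted p = 0.519). FCRL5, an Fc receptor-like protein, fell from 5.303, 4.72 and 5.03 CPM in PHF19_KD and 3.15 in the intermediate library to 0.678, 0.758 and 0.826 in shEV and 0.291 and 0.334 in KD_Rescued, with its upper call lost without KD_Rescued replicate 1. GPRC5D, an orphan receptor, peaked at the control: GPRC5D measured 8.28, 7.61 and 8.07 CPM (PHF19_KD), 24.1 CPM (intermediate), 38.7, 40.9 and 41.3 CPM (shEV) and 21.6 and 19.5 CPM (KD_Rescued). TNFRSF17 (BCMA) and IRF4, a master regulator of plasma cells, peaked as well (log2 changes 1.07 and -0.37, and 0.78 and -0.22), and SDC1 (CD138) levelled off low (-0.60 and 0.00).

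CCAAT boxes were common in the secretory promoters, in 22 of 28 matched members of the unfolded protein response list (78.6%). They were found in 47.7% of the promoters of all steadily rising genes and 35.3% of those of steadily falling genes, against 35.5% of all matched tested genes. The box was as common in lists of other direction: it was in 12 of 15 matched MHC class II promoters (80%), whose genes mostly fell on the lower leg. The promoter of SDF2L1 (chr22:21642052-21642301, plus strand) holds 4 matches, shown in capitals, on both strands.
SDF2L1: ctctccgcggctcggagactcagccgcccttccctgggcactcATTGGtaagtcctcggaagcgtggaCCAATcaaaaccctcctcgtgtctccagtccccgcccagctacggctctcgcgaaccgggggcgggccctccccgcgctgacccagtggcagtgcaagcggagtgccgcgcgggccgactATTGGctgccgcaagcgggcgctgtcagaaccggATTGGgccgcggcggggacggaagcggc

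**Figure D2:**
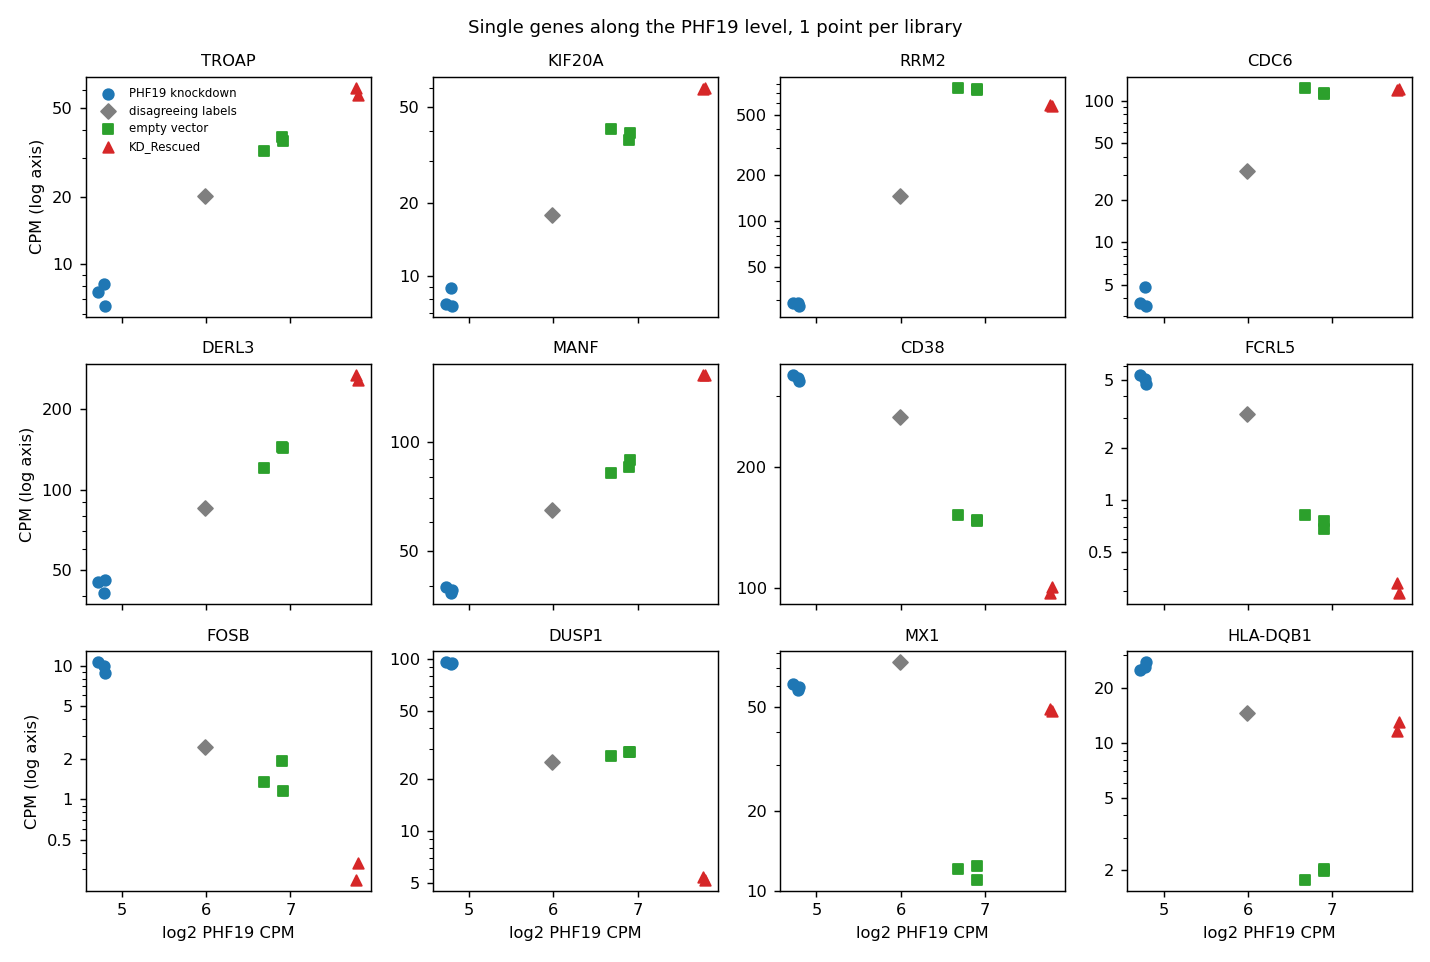
CPM of 12 genes (log y axes) against log2 PHF19 CPM, 1 point per library, with symbols for the 4 kinds of library. TROAP, KIF20A, DERL3 and MANF rise and CD38, FCRL5 and FOSB fall through all levels, CDC6 levels off, RRM2 peaks at the shEV level, MX1 and HLA-DQB1 have a trough there, and DUSP1 falls again between shEV and KD_Rescued.

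Ribosomal protein genes mostly fell with rising PHF19, by small amounts. Of 57 measured members 50 fell and none rose on the lower leg, against 34.9% and 34.2% of all genes. On the upper leg 35 fell and none rose, against 19.1% and 20.7% (edgeR). At an unadjusted p under 0.05 none rose either, and 51 and 37 fell, and DESeq2 called no rise. Among the 57 members 30 fell on both legs, against 4.07% of all genes, and the median log2 changes were -0.43 and -0.23. In falling order without overlap over all 9 libraries were 15 of 57, against 3.06% of all genes. RPL23 gave 2043, 2072 and 2077 CPM in PHF19_KD, 1911 in the intermediate library, 1117, 1067 and 1144 in shEV and 867 and 891 in KD_Rescued, in order without overlap. Its log2 changes were -0.90 ± 0.04 and -0.33 ± 0.04. RPS18 fell by 0.59 ± 0.04 and then 0.44 ± 0.05 on the log2 scale. Ribosomal protein genes have many processed pseudogenes, and most of their counts here were not whole, so reads are shared among copies. The nucleolar factors that assemble ribosomes moved the other way on the lower leg: 27 of 29 rose and none fell (edgeR, also at an unadjusted p under 0.05 and with DESeq2), with a median of 0.66, and 13 levelled off high while 6 peaked (12 without shEV replicate 3, 4 without KD_Rescued replicate 2, 1 in the broken-line fit). Of all genes 34.2% rose and 34.9% fell on the lower leg, 11.1% levelled off high and 11.2% peaked. NCL (nucleolin) peaked with log2 changes of 1.20 ± 0.05 and -0.23 ± 0.05, and NOP56, a component of box C/D ribonucleoproteins, rose on both legs (0.66 ± 0.04 and 0.40 ± 0.04). The count of steady falls among ribosomal proteins was 19 in the broken-line fit, the lowest beside the limit of 2-fold, which left none, and 44 without shEV replicate 3, the highest.

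Immediate early genes, which growth and stress signals switch on within minutes, held FOSB, DUSP1 and FOS, 3 of the 6 genes that the rule of size named among steady falls. Of 26 measured members 15 fell and 3 rose on the lower leg, and 12 fell and 2 rose on the upper leg. On both legs 6 fell: EGR1, FOSB, DUSP1, FOS, JUN and DUSP5. Among all genes these shares were 34.9%, 34.2%, 19.1%, 20.7% and 4.07%. DUSP1, a phosphatase of MAP kinases, gave 96.01, 94.6 and 93.4 CPM in PHF19_KD, 25.2 in the intermediate library, 28.8, 28.7 and 27.2 in shEV and 5.199 and 5.38 in KD_Rescued. The intermediate library lay below the control here, out of the order of PHF19. The log2 changes were -1.75 ± 0.05 and -2.41 ± 0.08, with a bend of -1.67 per doubling (adjusted p = 7.16e-08). FOS, a subunit of the AP-1 transcription factor, fell further on the upper leg: FOS measured 17.9, 19.8 and 18.4 CPM (PHF19_KD), 3.55 CPM (intermediate), 6.06, 7.38 and 6.02 CPM (shEV) and 0.125 and 0.125 CPM (KD_Rescued). FOSB kept the order of PHF19, with 10.6, 8.77 and 9.89 CPM in PHF19_KD, 2.46 in the intermediate library, 1.94, 1.16 and 1.36 in shEV and 0.333 and 0.2504 in KD_Rescued. EGR1 was low throughout, with 2.42, 2.65 and 1.47 CPM in PHF19_KD, 0.0986 in the intermediate library, 0.181, 0.253 and 0.354 in shEV and 0 and 0.0417 in KD_Rescued, and its upper call was lost with DESeq2 and without KD_Rescued replicate 1. EGR1 passed the filter on low counts only through PHF19_KD, so its low values elsewhere follow from its choice. ADARB1, an adenosine deaminase of RNA, had a like order outside this list: ADARB1 measured 47.4, 48.6 and 47.004 CPM (PHF19_KD), 5.22 CPM (intermediate), 15.8, 16.8 and 16.04 CPM (shEV) and 1.66 and 2.25 CPM (KD_Rescued).

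**Figure D3:**
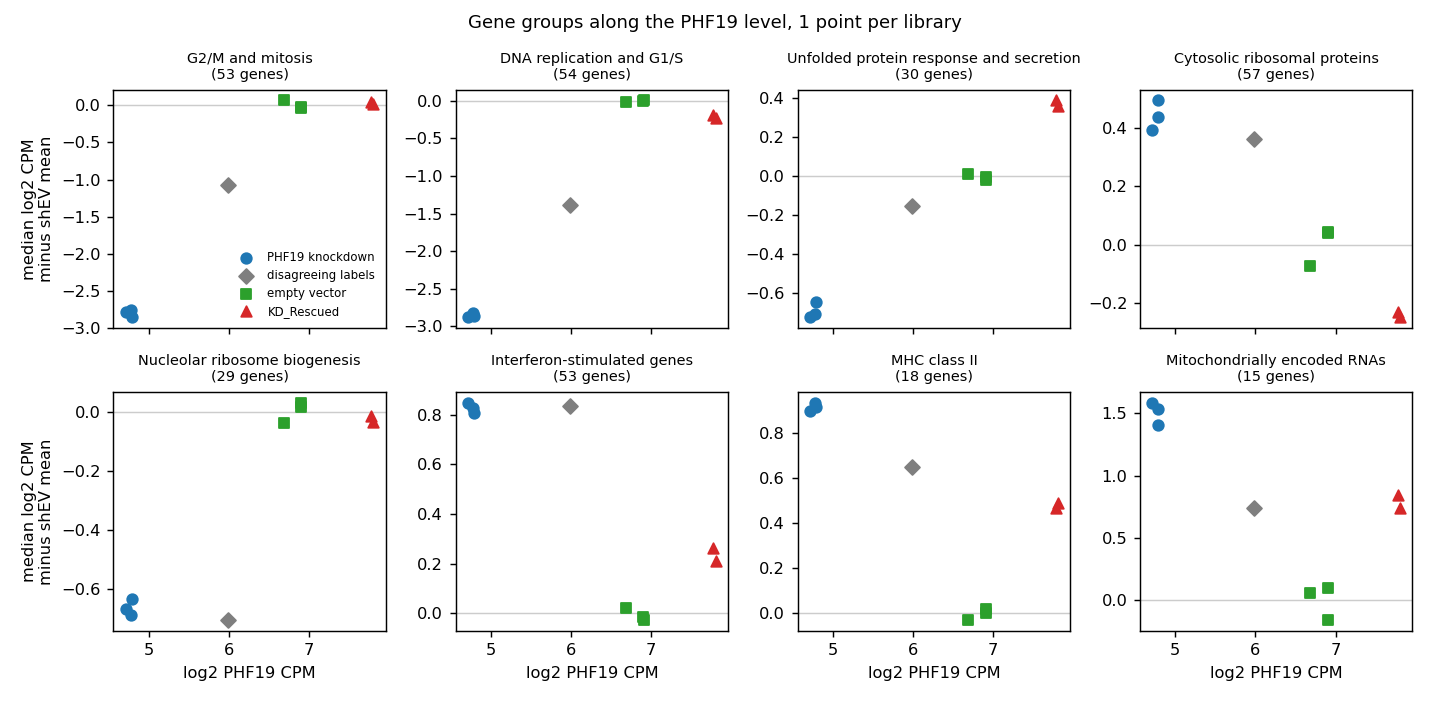
Median log2 CPM of 8 gene groups, relative to the mean of the shEV libraries, against log2 PHF19 CPM, 1 point per library. Mitosis and replication genes climb by nearly 3 log2 units and flatten, secretion genes keep rising and ribosomal protein genes keep falling, and interferon, MHC class II and mitochondrially encoded genes have their lowest medians in the shEV libraries.

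PRC2 subunits did not share a direction. EZH2, the catalytic subunit of dividing cells, levelled off: EZH2 measured 35.1, 29.4 and 33.7 CPM (PHF19_KD), 54.1 CPM (intermediate), 131, 133 and 133 CPM (shEV) and 143 and 144 CPM (KD_Rescued). Its libraries were in the order of PHF19 without overlap, and the upper change of 0.12 ± 0.06 missed the threshold (adjusted p = 0.12). EZH1, its paralogue, had a trough: from the lowest to the highest PHF19 group, EZH1 read 92.01, 84.7 and 85.8 CPM, then 56.3, then 48.2, 44.3 and 47.1 and last 62.1 and 60.1 CPM. SUZ12, RBBP7, MTF2 and AEBP2 peaked, with lower changes from 0.40 to 1.17 and upper changes from -0.34 to -0.21, and EED rose on both legs (0.64 ± 0.07 and 0.24 ± 0.07). The upper calls of EED and MTF2 were lost with DESeq2 and without either KD_Rescued library. The 2 other Polycomb-like proteins thereby differed from each other: MTF2 peaked, and PHF1 had a trough with 32.8, 32.6 and 30.1 CPM in PHF19_KD, 28.3 in the intermediate library, 16.4, 16.4 and 13.2 in shEV and 25.99 and 27.001 in KD_Rescued. LCOR fell on both legs and JARID2 was called on neither. Of the 11 measured members 7 rose and 3 fell on the lower leg, and 3 rose and 5 fell on the upper leg. All genes tested had shares of 34.2%, 34.9%, 20.7% and 19.1%. The 4 peaks were 1 in the broken-line fit and 2 without KD_Rescued replicate 1, and the 5 upper falls were 3 without shEV replicate 1 or either KD_Rescued library.

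Polycomb repressive complex 1, which reads the mark of PRC2 and ubiquitinates histone H2A, was mixed as well. Of 22 subunits 12 rose and 6 fell on the lower leg, and 3 rose and 7 fell on the upper leg. The shares over all genes were 34.2%, 34.9%, 20.7% and 19.1%. CBX2 and CBX7, which read the mark in alternative forms of the complex, moved in opposite directions and levelled off (lower changes 2.61 ± 0.33 and -1.22 ± 0.05, upper changes -0.49 ± 0.26 and 0.08 ± 0.06). PCGF6, KDM2B and BMI1 were among 6 that peaked. KDM6B, a demethylase of H3K27, levelled off low: KDM6B measured 24.3, 27.8 and 22.1 CPM (PHF19_KD), 17.4 CPM (intermediate), 8.998, 8.29 and 7.37 CPM (shEV) and 9.48 and 10.2 CPM (KD_Rescued). Among 28 measured developmental genes of the kind Polycomb silences, of 78 listed, 10 rose and 8 fell on the lower leg, against 34.2% and 34.9% of all genes, and 7 rose and 7 fell on the upper leg (4 falls without shEV replicate 2 or KD_Rescued replicate 1). The upper shares over all genes were 20.7% and 19.1%. The median log2 changes of these developmental genes were 0.30 and -0.03. WNT5A, a signalling ligand, rose steadily from 0.279, 0.165 and 0.0867 CPM in PHF19_KD and 0.69 in the intermediate library to 0.814, 0.708 and 1.12 in shEV and 2.45 and 2.46 in KD_Rescued. HOXB9, a homeobox factor, fell from 0.837, 2.23 and 1.39 CPM in PHF19_KD and 0.317, 0.455 and 0.413 in shEV to 0 and 0.125 in KD_Rescued, with the upper call lost without shEV replicate 2 or KD_Rescued replicate 1. HOXB9 passed the filter on low counts only through PHF19_KD, so its low values elsewhere follow from its choice. TBX2, a T-box factor, peaked at 0.588, 1.16 and 0.5898 CPM in shEV.

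The list of CDK inhibitors and p53 targets mostly fell on the lower leg. Of 28 measured genes of this list 17 fell and 6 rose from PHF19_KD to shEV, against 34.9% and 34.2% of all genes. Of the 28 genes 8 levelled off low, against 7.86% of all genes. GADD45A, a stress protein, gave 131, 132 and 127 CPM in PHF19_KD, 76.2 in the intermediate library, 27.6, 26.6 and 25.8 in shEV and 24.9 and 25.4 in KD_Rescued. CDKN1A (p21) kept falling instead, from 62.5, 65.8 and 62.4 CPM in PHF19_KD and 63.4 in the intermediate library to 37.03, 36.002 and 32.4 in shEV and 21.3 and 21.8 in KD_Rescued, and its intermediate library lay among the knockdown values. Of all genes that levelled off low, LRP1, an endocytic receptor, was among the largest falls. From the lowest to the highest PHF19 group, LRP1 read 32.3, 37.2 and 39.8 CPM, then 11.7, then 1.31, 1.42 and 1.18 and last 1.04 and 0.709 CPM.

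Genes of amino acid supply and of mitochondrial energy mostly rose on the lower leg. Of 26 measured genes of the ATF4 response to amino acid stress 20 rose and 3 fell on the lower leg, 6 rose and 12 fell on the upper leg, and 10 peaked. PHGDH, which starts serine synthesis, gave 4.09, 3.31 and 3.903 CPM in PHF19_KD, 25.2 in the intermediate library, 74.3, 74.2 and 62.7 in shEV and 44.5 and 44.2 in KD_Rescued. ATF4 itself rose on both legs (0.85 ± 0.04 and 0.45 ± 0.04), and DDIT3 (CHOP) had a trough (-0.97 ± 0.12 and 1.12 ± 0.12). Of 46 nuclear genes of oxidative phosphorylation 36 rose and 2 fell on the lower leg, 5 rose and 16 fell on the upper leg, and 13 peaked. For both lists the shares over all genes were, in this order, 34.2%, 34.9%, 20.7%, 19.1% and 11.2%. LDHA, which makes lactate, peaked with log2 changes of 2.29 ± 0.04 and -0.35 ± 0.04. The 10 peaks of the ATF4 list were 4 in the broken-line fit, 6 without shEV replicate 2, 5 without KD_Rescued replicate 1 and 4 without KD_Rescued replicate 2, and its 12 upper falls were 6 and 5 without these KD_Rescued libraries. The 13 peaks of oxidative phosphorylation were 7 in the broken-line fit, 8 without either KD_Rescued library and 22 without shEV replicate 3, and its 16 upper falls were 9 in the broken-line fit, 9 and 10 without KD_Rescued replicates 1 and 2, and 25 without shEV replicate 3.

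Single genes outside these lists peaked as well. IGF2BP3, an RNA-binding protein of fetal tissue and tumours, gave 0.651, 0.496 and 0.867 CPM in PHF19_KD, 0.591 in the intermediate library, 12.5, 12.03 and 13.5 in shEV and 3.08 and 2.25 in KD_Rescued. The intermediate library lay within the knockdown values. DPYSL3, a protein of the cytoskeleton, showed 3.16, 3.56 and 2.78 CPM (PHF19_KD), 0.986 CPM (intermediate), 11.7, 11.4 and 12.3 CPM (shEV) and 3.12 and 3.005 CPM (KD_Rescued), and here the intermediate library was the lowest of all. CCND2, cyclin D2, which MAF induces in myeloma, peaked at 517, 528 and 491 CPM in shEV against 131, 125 and 123 in PHF19_KD, 207 in the intermediate library and 344 and 319.6 in KD_Rescued. MAF itself levelled off low, with 1429.8, 1357 and 1389 CPM in PHF19_KD, 1235 in the intermediate library, 653, 624 and 579 in shEV and 639 and 615 in KD_Rescued.

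Interferon-stimulated genes, the antiviral program that interferon signalling switches on, were lowest at the control level. Of 53 measured members 42 fell and 3 rose on the lower leg, and 27 rose and 5 fell on the upper leg. A trough was called in 23, and 11 levelled off low. Among all genes these shares were 34.9%, 34.2%, 20.7%, 19.1%, 11.8% and 7.86%. The median log2 changes were -0.86 and 0.50. MX1, an antiviral GTPase, gave 61.1, 59.6 and 58.02 CPM in PHF19_KD, 73.6 in the intermediate library, 12.3, 10.97 and 12.03 in shEV and 47.9 and 48.99 in KD_Rescued. The 3 control libraries lay far below all others, and the intermediate library lay above the knockdown. The log2 changes were -2.34 ± 0.06 and 2.04 ± 0.07 (adjusted p = 2.92e-11 and 1.03e-08). IFI6, which protects mitochondria from cell death signals, measured 48.7, 55.2 and 58.3 CPM in PHF19_KD, 40.4 in the intermediate library, 3.53, 4.05 and 2.83 in shEV and 11.8 and 12.1 in KD_Rescued, so that the highest PHF19 level regained only part of the fall. IRF9 returned to the knockdown level, with 6.56, 7.64 and 5.96 CPM in shEV, 17.8 and 17.8 in KD_Rescued and 17.5, 18.6 and 17.6 in PHF19_KD. USP18, which damps interferon signalling, rose on the upper leg only, to 3.58 and 3.59 CPM from 0.543, 1.06 and 1.06 in shEV and 0.651, 1.08 and 0.5203 in PHF19_KD, and its intermediate library had 2.86 CPM. CXCL10, a chemokine, rose on both legs (0.56 ± 0.11 and 1.43 ± 0.09). The number of troughs was 3 when all 9 libraries entered the broken-line fit and 14 to 24 under the other alternatives.

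The interferon-stimulated response element (ISRE, GAAA, then 2 or 3 bases of any kind, then GAAA, either strand) was found in 22 of 41 matched members of this list (53.7%), against 4.26% of all matched tested genes, and in 5.34% of all genes with a trough. MHC class I promoters held it in 6 of 14 (42.9%). The promoter of IFI6 (chr1:27672193-27672442, minus strand) holds 3 matches, in capitals.
IFI6: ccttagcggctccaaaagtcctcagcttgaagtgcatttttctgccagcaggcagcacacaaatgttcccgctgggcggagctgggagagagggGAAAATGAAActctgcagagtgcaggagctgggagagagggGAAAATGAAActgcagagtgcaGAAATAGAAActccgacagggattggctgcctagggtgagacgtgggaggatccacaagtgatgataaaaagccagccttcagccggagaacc

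Antigen presentation genes had a trough at the control level too, with larger median log2 changes in MHC class II (-0.92 and 0.48) than in class I (-0.41 and 0.15). Of 18 measured class II genes 15 fell and none rose on the lower leg, 14 rose and none fell on the upper leg, and 13 had a trough (edgeR). At an unadjusted p under 0.05 none rose on the lower leg and none fell on the upper, while DESeq2 called 1 fall there. HLA-DQB1 gave 25.03, 27.5 and 25.9 CPM in PHF19_KD, 14.5 in the intermediate library, 1.99, 2.02 and 1.77 in shEV and 13.02 and 11.6 in KD_Rescued. The control libraries lay below all others. CD74, the invariant chain, had 3205, 3261 and 3236 CPM in PHF19_KD, 2339 in the intermediate library, 1809, 1765 and 1634 in shEV and 2421 and 2442 in KD_Rescued. CIITA, the transactivator of class II genes, was not called on the lower leg (-0.07 ± 0.06, adjusted p = 0.369) and rose on the upper leg (0.47 ± 0.07, adjusted p = 2.17e-04). Of 17 class I genes 14 fell and none rose on the lower leg (edgeR, also unadjusted and with DESeq2), 8 rose and 2 fell on the upper leg, and 8 had a trough. For both classes the shares over all genes were, in this order, 34.9%, 34.2%, 20.7%, 19.1% and 11.8%. HLA-E regained little of its fall: HLA-E measured 588, 608 and 597 CPM (PHF19_KD), 550.4 CPM (intermediate), 239.8, 246 and 237 CPM (shEV) and 289 and 296 CPM (KD_Rescued). B2M, the light chain of class I, fell on both legs (-0.59 ± 0.06 and -0.30 ± 0.06). Reads of HLA genes are shared among paralogues, and most of these counts were not whole. In the broken-line fit with 9 libraries 9 class II and 1 class I troughs were called.

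All 15 measured mitochondrially encoded RNAs had a trough, against 11.8% of all genes, with median log2 changes of -1.52 and 0.76. Their share of all counts was 9.02% to 10.0% in PHF19_KD, 5.56% in the intermediate library, 2.84% to 3.32% in shEV and 4.99% to 5.18% in KD_Rescued. MT-ND1, a subunit of respiratory complex I, gave 3738, 3369 and 3636 CPM in PHF19_KD, 1750.3 in the intermediate library, 857, 692 and 774 in shEV and 1658 and 1772 in KD_Rescued. Over the 3 groups this share and the interferon and MHC genes had a trough. The share of the intermediate library was near that of KD_Rescued. The median log2 level of interferon genes in the intermediate library, relative to the shEV mean, was 0.84. It was 0.85, 0.81 and 0.83 in PHF19_KD and 0.21 and 0.26 in KD_Rescued. For MHC class I the intermediate library had 0.50 and KD_Rescued 0.12 and 0.17, and for class II 0.65 and 0.49 and 0.47. These are values of 1 library with disagreeing labels, and the part of the mitochondrial share in the interferon and MHC results was not tested. Without the mitochondrially encoded genes in the scaling the troughs of all genes numbered 1759 and the peaks 2150, against 1964 and 1859.

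On the upper leg alone, with the bend called, 3.8% of genes tested rose and 2.88% fell. Named by the rule, NSUN5P2, a pseudogene with shared reads, rose from 12.9, 9.304 and 9.08 CPM in shEV to 36.1 and 36.6 in KD_Rescued, with 12.6, 13.3 and 12.5 in PHF19_KD and 11.1 in the intermediate library. COL6A3, a collagen chain, was at 0, 0.165 and 0.0867 CPM in PHF19_KD, 0 in the intermediate library and 0.0904, 0 and 0.05898 in shEV, and at 10.2 and 4.298 in KD_Rescued, where its libraries differed more than 2-fold. CDKN2C, the CDK inhibitor p18, was at 0, 0 and 0.173 CPM in PHF19_KD, 0.0986 in the intermediate library, 0, 0 and 0.118 in shEV and 3.62 and 0.751 in KD_Rescued. Its KD_Rescued libraries also differed widely. COL6A3 and CDKN2C passed the filter on low counts only through KD_Rescued, so their values near 0 elsewhere follow from their choice. Outside this class, ADAMTS2, a procollagen protease, was a steady rise, though its lower call (adjusted p = 0.0274) was lost under 4 alternatives. It was below 1 CPM in PHF19_KD and shEV (0.09303, 0 and 0.0867, and 0.181, 0.506 and 0.177), at 2.56 in the intermediate library and at 11.9 and 12.6 in KD_Rescued. The 3 libraries with shRNA-resistant PHF19 in their shRNA entry held its higher values. ADAMTS2 too passed the filter only through KD_Rescued. DNAJB9 and SYVN1, a cochaperone and a ubiquitin ligase of the endoplasmic reticulum, rose on the upper leg only among the secretory genes (0.72 ± 0.07 and 0.51 ± 0.05).

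On the log2 scale the intermediate library lay nearer to the knockdown, in the median of the genes called, than its PHF19 value does. Its place was measured from 0 at the PHF19_KD mean to 1 at the shEV mean, and PHF19 itself had a place of 0.59. Over 4382 genes called on the lower leg at 2-fold or more the median place was 0.39, and 3591 of them lay between the means, 505 below 0 and 286 above 1. On the CPM scale the median was 0.38 against 0.41 for PHF19. Genes higher at the control had a median of 0.42 on the log2 scale and lower ones of 0.36, an order that turned on the CPM scale, with 0.28 for higher and 0.49 for lower genes. Among the classes, steadily rising genes came closest to PHF19 on the log2 scale, at 0.55, against 0.31 for steadily falling, 0.44 for levelled off high, 0.32 for levelled off low, 0.38 for peaked and 0.37 for trough genes. On the CPM scale the steadily falling and levelled off low genes, both at 0.43, came closest to the 0.41 of PHF19, and steadily rising genes were at 0.37, so the order of the classes rests on the scale. With 1 library, these are descriptions without a test.

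The places differed widely between gene groups. Among members called on the lower leg, on the log2 scale, the median place was 0.57 for mitosis and for the unfolded protein response, 0.53 for the ATF4 list, 0.51 for mitochondrially encoded RNAs and 0.49 for replication. It was 0.44 for MHC class II and 0.17 for ribosomal proteins. MHC class I had a median of 0.06, interferon-stimulated genes of -0.01 and nucleolar factors of -0.02, so that these 3 groups lay at the knockdown level while PHF19 was at 63.5 against 27.2 CPM. In values, NOP56 was at 214, 212 and 213 CPM in PHF19_KD and 211 in the intermediate library, against 340.2, 339 and 327 in shEV. IRF4 had 404, 388 and 389 and 393 CPM against 682, 676 and 667. The immediate early genes were scattered, with a median of 0.65. Of 18 called members 6 lay near or beyond the knockdown mean, 6 in the middle and 6 near or beyond the shEV mean. FOS, EGR1, DUSP1 and JUN were above 1 (places 1.53, 1.19, 1.09 and 1.66).

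**Figure D4:**
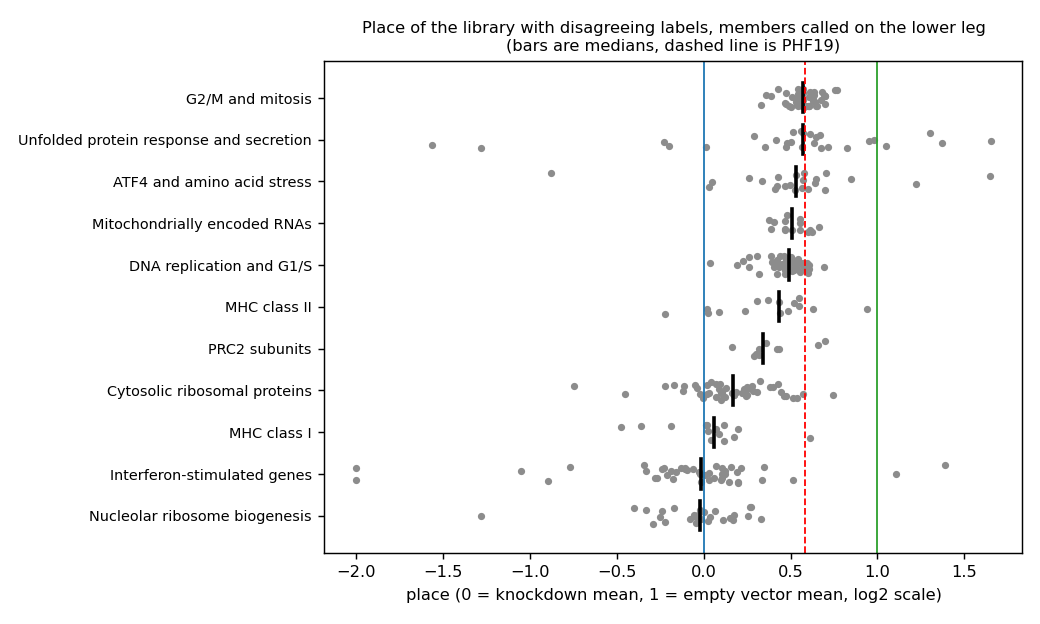
Place of the intermediate library between the PHF19_KD mean (0) and the shEV mean (1) for 334 members of 11 gene lists called on the lower leg, 1 point per gene, with bars at the medians and a dashed line at the place of PHF19 (0.59). Values beyond -2 or 2.5 (2 members) are drawn at the edge. Mitosis members cluster near the dashed line, while interferon and nucleolar members cluster around 0.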

How the data were processed

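Total RNA of MM1S cells had been sequenced as 9 libraries. The authors deposited 1 table of estimated counts per gene (58387 genes) that is not scaled between libraries. The submitters' processing notes list CASAVA, RSEM and hg19 and give them no roles, and the name of the table points to salmon. Annotation, filters and strandedness were not given in the sources used here. Values that were not whole (tolerance 0.01) made up 15.6% to 19.4% of a library and arise where reads are divided among genes. This touched at least 5 libraries for RRM2, PCNA, TROAP, KIF20A, CDCA3, HSPA5, CD38, EZH2, SUZ12, CBX7, MX1, IRF9, USP18, CIITA, HLA-DQB1, HLA-E, MT-ND1, NCL, NOP56, IGF2BP3, CCND2, LDHA, XBP1, ATF4, UHRF1 and FOXM1 among others, whose values are uncertain to that extent. Overlapping and antisense genes cannot be separated either.

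PHF19 CPM by column total set the order. Estimated counts were rounded, filtered with filterByExpr by group and scaled with TMM, and the 8 libraries with undisputed labels were fitted as group means with the edgeR quasi-likelihood test (edgeR 4.0.16, R 4.3.3, robust). Each leg is a contrast of 2 group means. The bend is the difference of the slopes per doubling of PHF19. Benjamini-Hochberg adjustment ran over all tested genes for each contrast, and 0.05 was the threshold. CPM of single genes are TMM-scaled, and the unassigned library was scaled to the same reference library. Log2 values used a prior of 0.5 CPM. Standard errors follow ± signs of log2 changes. The procedure was tested on simulated data, with changes of at least 2-fold in a small set of well-counted genes and all other genes unchanged. In the data 69.1% of genes were called on the lower leg, many with smaller changes. The simulation therefore gives no measure of how reliable the class counts are. Alternatives covered scaling, DESeq2 1.42.0, filters, the PHF19 scale, all 9 libraries, a 2-fold limit, the replicate number as a term and leaving out each library.

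The members and gene lists were chosen with earlier results of these data known. Per class, the rule named the 6 genes with the largest change among those with mean log2 CPM of at least 1 and no overlap between groups, then the 6 most like PHF19, the 4 highest and 4 lowest in the unassigned library, and up to 4 members per list, the 2 largest rises and 2 largest falls on the lower leg. The text gives a part of them. Other genes were chosen after their values were seen.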

Additional observations from a re-analysis of the deposited data

Results flagged for a closer look

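In the library with disagreeing labels, which the main tests left out, 4 genes stood above all 8 other libraries by the largest gaps. TUBB2B, a beta-tubulin with reads shared among paralogues, had 24.2 CPM there, against 4.48 to 8.10 CPM in the others. CCL4L1, a chemokine gene with near-identical copies, had 90.6 CPM. KLF4, a transcription factor, had 6.9 CPM, against 1.56 to 2.51 CPM elsewhere. GSDMC, a gasdermin, had 14.8 CPM, against 3.48 to 6.24 CPM elsewhere. Over 12869 genes with a mean log2 CPM of at least 1, this library was above all others in 1501 (11.7%) and below all others in 1004 (7.80%), by 2-fold or more in 10 and 13.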

How the results depend on the processing

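The lower leg kept its counts within 1.5 times under every alternative except the limit of 2-fold, which left 1670 rises and 2712 falls. That limit left 906 rises and 310 falls on the upper leg, 25 and 44 steady genes, 87 peaks, 530 troughs, and 299 rises and 138 falls on the upper leg only. With all 9 libraries in a broken-line fit, 2091 genes rose and 1775 fell on the upper leg, 2713 bends were upward, 319 and 318 genes were steady, 935 peaked and 1197 had a trough. DESeq2 gave 2230 rises on the upper leg, 397 steady rises and 396 rises on the upper leg only. A mean of at least 5 CPM left 404 of the last kind. On a linear PHF19 scale 2272 genes levelled off low and 316 fell on the upper leg only. The cause of these shifts was not tested beyond the smaller sets that the limits leave by construction. Upper-quartile scaling moved the median lower change of all genes from -0.03 to -0.19.

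Leaving out 1 library at a time gave 2167 to 3713 rises and 1880 to 3825 falls on the upper leg, 386 to 899 steady rises, 423 to 851 steady falls, 1090 to 2282 peaks, 1306 to 2037 troughs, and 395 to 702 rises and 317 to 555 falls on the upper leg only. The low ends came without a KD_Rescued library, which leaves 1 library at that level, assumed to vary like the other groups. Without shEV replicate 3 both steady counts, the upper leg counts, the peaks and the troughs were highest. The median place of the intermediate library was 0.38 on the CPM scale and 0.36 over genes called at any size.

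Whether the replicate numbers pair the libraries was not settled. Correlations of deviations ran from -0.05 to 0.14 between same-numbered libraries and from -0.12 to 0.09 between the others. Those of same-numbered PHF19_KD and shEV libraries were 0.02, 0.14 and 0.10. Deviations were taken from means of 2 or 3 libraries, which ties these values to each other. The replicate block gave 671 steady rises, 693 steady falls, 1801 peaks, 1892 troughs, 1980 genes levelled off high and 1331 low.

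Over 207 named genes and both legs, 185 comparisons with an alternative lost the call, 82 gained it, 7447 kept its side of the threshold, and 1 reversed: the upper change of TUBB2B was -0.0807 in the broken-line fit. That fit accounted for 55 of the losses, among them the upper legs of MX1, IFI6, RRM2, LDHA, NCL, IRF4, SUZ12, HLA-E and B2M, with adjusted p from 0.0515 to 0.917. KD_Rescued has 2 libraries and the intermediate level 1, so the upper leg and the place carry the least precision.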

Other observations

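Lipid genes of the cholesterol pathway did not move as a block. Of 26 measured members 13 rose and 8 fell on the lower leg, and 6 rose and 1 fell on the upper leg. Over all genes tested these shares were 34.2%, 34.9%, 20.7% and 19.1%. The 6 upper rises were 3 without either KD_Rescued library, with DESeq2 and in the broken-line fit. SREBF1, a transcription factor of lipid synthesis, had a trough, with changes of -2.99 ± 0.09 and 0.81 ± 0.10. The promoters of the list held CCAAT in 15 of 20 matched members (75%).

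Chaperones of the cytosol mostly rose on the lower leg (11 of 16, with 2 falls, against 34.2% and 34.9% of all genes). HSPA8, the constitutive HSP70, rose steadily by 0.99 ± 0.04 and 0.41 ± 0.05. In the NF-kB list 5 of 25 members rose and 11 fell on the lower leg, against 34.2% and 34.9% of all genes. TRAF1, a signalling adaptor, had a deep trough, from 42.2 to 52.4 CPM in PHF19_KD over 29.9 in the intermediate library and 5.01 to 6.19 in shEV to 24.3 and 26.3 in KD_Rescued. CX3CR1, a chemokine receptor, was at 0.0867 to 0.579 CPM in PHF19_KD, 0.354 to 0.413 in shEV, 1.97 in the intermediate library and 2.37 and 2.92 in KD_Rescued.

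In the intermediate library RFTN1, a lipid raft protein, had 0.197 CPM, against 1.41 to 2.78 CPM in all other libraries, and SNX15, a sorting nexin with shared reads, had 3.25 CPM against 8.93 to 17.9 CPM.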
